A study of Homo sapiens with 4 samples.

Results

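A set of 10 genes encoding subunits of the BAF (mammalian SWI/SNF) chromatin remodelling complex were followed in human neurons, taken by name from a list of progenitor and neuronal paralogs. They are SMARCA2, SMARCA4, ARID1A, ARID1B, ACTL6A, ACTL6B, DPF1, DPF3, PHF10 and SMARCC2, and all 10 were found among the 28307 gene symbols of the count files. PolyA RNA was sequenced (paired-end, 75 bp) from excitatory i3N-WTC11 neurons, which are derived from an established human induced pluripotent stem cell line. In all 4 libraries the cells carried dCas9-KRAB, a DNA-binding but non-cutting Cas9 fused to a repressor domain, driven by a CAG promoter from an intron of CLYBL. At 2 weeks of differentiation they received lentivirus (multiplicity of infection about 3), then puromycin at 0.5 µg/mL for 4 days, and they were collected 7 days after the virus. The CRISPRi group (2 libraries) is labelled as targeted at a MIR family transposable element on chromosome 11, given as 47605296 to 47605575 in one place and as 47608036 to 47608220 in another, with 2 guide RNAs per element. The Control group (2 libraries) received the empty guide vector. No member lies on chromosome 11, and no progenitor or stem cell library was analysed here, so the paralog ratios describe neurons only.

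BAF complexes use the energy of ATP to move or evict nucleosomes and so open promoters and enhancers. Several positions in the complex can be filled by either of 2 or more paralogs, and as neural progenitors leave the cell cycle some of these are exchanged. ACTL6A gives way to ACTL6B, PHF10 gives way to DPF1 and DPF3, and SS18 gives way to SS18L1, which turns the progenitor complex into the neuronal one. The exchange of ACTL6A is known to involve the microRNAs miR-9-3p (also written miR-9*) and miR-124, which act on the 3′ untranslated region of ACTL6A and are themselves held down by the repressor REST outside neurons.

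The miR-9-3p sequence and its matches in ACTL6A are shown because they are the part of this switch that can be read from sequence. The mature miRNA is taken from RefSeq (GRCh38.p14), where 3 loci encode the same sequence, and its seed (bases 2 to 8) is in capitals. The ACTL6A sites are from GENCODE release 29 transcripts (GRCh38), with the bases complementary to the seed in capitals.

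miR-9-3p: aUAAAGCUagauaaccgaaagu

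ACTL6A site 1: accttacgtttcatAGCTTTAg

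ACTL6A site 2: cttaaattttttaaAGCTTTAa

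Both sites lie in the 3′ untranslated region of ACTL6A on the plus strand, the first at chr3:179588045-179588066 and the second at chr3:179588134-179588155. The letters searched were AGCTTTA, on the transcript strand only, in the longest annotated 3′ untranslated region of each member. ACTL6A had 2 matches in 398 bases and its neuronal paralog ACTL6B had 0 in 149 bases. ARID1B and PHF10 had 1 match each in much longer regions (8292 and 3187 bases), and the other 6 members had 0. Of 14695 genes with a region at least as long as that of ACTL6A, 3.39% held a match and 0.0885% held 2 or more in the first 398 bases. These matches are descriptions of sequence, and miRNAs themselves were not measured by polyA sequencing.

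Depth limits what can be compared. Totals were 39325038 to 44839748 gene counts in both CRISPRi libraries and Control replicate 2, called the 3 deep libraries below, and 944993 in Control replicate 1, where 1 count equals 1.06 CPM (the count as a share of the library total, in the usual CPM scaling). Pan-neuronal markers were present in every library, summing over 15 genes to 23564 to 24382 CPM in the deep libraries and to 20665 CPM in the shallow one, where 14 of the 15 were lowest. The pluripotency factor NANOG had 0 to 1 counts, POU5F1 0 to 12, and the astrocyte gene GFAP 0 to 4. NES, an intermediate filament usually taken as a progenitor marker, stood at 731 to 864 CPM. It made up most of the summed level of the 12 listed neural progenitor genes (1007 to 1055 CPM). Of the others VIM was at 119 to 217 CPM, and all the rest were at or below 35.4 CPM in every library. Over the 15708 genes tested below, Control replicate 1 was above all 3 deep libraries for 39.5% and below all 3 for 50.2%. It differed in its dividing-cell markers, with 20 of 20 cell cycle genes higher there than in all 3 deep libraries. These summed to 753 CPM against 149 to 158 CPM, with MKI67 at 76.2 CPM against 11.1 to 14.2 CPM. The part of this difference in the values below was not tested. In bulk RNA, fewer cells of a type and less RNA per cell cannot be told apart.

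None of the 10 members passed the test between CRISPRi and Control neurons. All 10 passed the filter on low counts, and by edgeR's quasi-likelihood test 0 were called higher and 0 lower, where the background over 15708 tested genes was 0% called higher and 0.0255% (4 genes) called lower. At an unadjusted p under 0.05 the count of members was again 0, against 0.961% of all tested genes. At so low a share, 0 of 10 says little about the members. DESeq2 and limma-voom also called 0 members. Fold changes (log2, CRISPRi over Control) ran from -0.14 for PHF10 to 0.14 for ACTL6A, with 5 positive, 5 negative and a median of 0.01, the same rounded median as over all tested genes (0.01). The 95% confidence interval lay within a 1.5-fold change in either direction for 9 of the 10, against 8330 of the 15708 tested genes. The exception among the members was PHF10 (-0.61 to 0.34). These intervals come from the fit of all 4 libraries, and without Control replicate 2 the log2 fold change of SMARCA2 was 0.67. Leaving out any library leaves a single library alone in its group, and the calls over all genes moved with the library dropped. The absence of member calls in these fits is therefore not read as stability of the members.

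**Figure D1:**
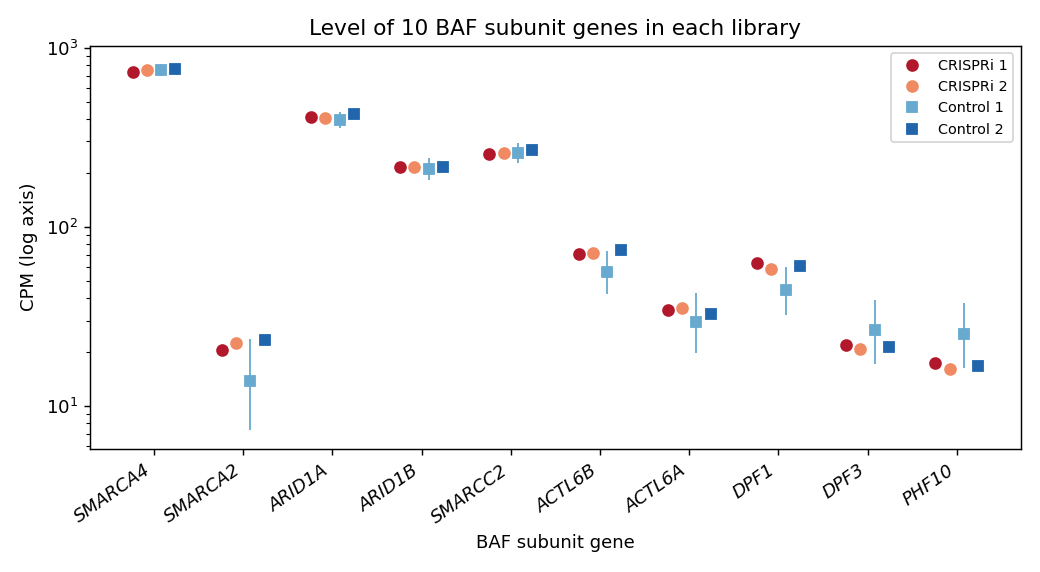
Level of each member in each library, in CPM on a log axis; circles are CRISPRi and squares Control libraries, and bars on Control replicate 1 are exact Poisson 95% intervals, which cover counting error only. The 3 deep libraries nearly coincide for every gene, with at most a 1.13-fold spread, and the 944993-count library scatters around them for the low genes.

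RNA for the actin-related position (BAF53) came mainly from the neuronal paralog. ACTL6B, the neuronal actin-like subunit (hg38 chromosome 7, 100643103 to 100656448, minus strand), was at 70.5 and 71.3 CPM in the CRISPRi libraries and at 56.1 and 74.0 CPM in Control replicates 1 and 2. The groups overlapped, because the highest and the lowest value were both Control libraries, and the log2 fold change was 0.04 (SE 0.12, 95% interval -0.26 to 0.35, edgeR adjusted p = 1.00). It turned to -0.06 without Control replicate 1. ACTL6A, the progenitor actin-like subunit that also serves other remodellers (hg38 chromosome 3, 179562880 to 179588407, plus strand), was at 34.6 and 35.4 CPM in CRISPRi and at 29.6 and 32.7 CPM in Control. Both CRISPRi values lay above both Controls, but the Control replicate 1 value rests on 28 counts, and the log2 fold change was 0.14 (SE 0.11, 95% interval -0.12 to 0.40, edgeR adjusted p = 1.00). It was 0.27 without Control replicate 2, still with no call. Groups did not overlap in CPM for 2 of the 10 members, ACTL6A with CRISPRi higher and SMARCA4 with CRISPRi lower, against 34.3% of all tested genes, of which 17.8% had CRISPRi higher and 16.5% lower. The members' share was therefore not above the background.

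Within a library the ratio of ACTL6B to ACTL6A reads does not depend on scaling. The CRISPRi libraries gave 2.04 and 2.01 and the Control libraries 1.89 (replicate 1) and 2.27 (replicate 2), with an exact binomial (Clopper-Pearson) 95% interval of 1.18 to 3.11 for Control replicate 1 and of 2.12 to 2.42 for Control replicate 2. More reads came from the neuronal paralog in all 4 libraries. The difference of the mean log2 ratios, CRISPRi minus Control, was -0.03 (counting interval -0.37 to 0.31, exact two-sided permutation p = 1.00), and it became 0.10 without Control replicate 2. With 2 libraries against 2 the exact test cannot give a p below 0.33, so no ratio here can pass. Per unit of transcript length, by the FPKM (reads scaled by gene length and library total) that the authors deposited, the ACTL6B level was 2.44 and 2.39 times that of ACTL6A with CRISPRi and 2.27 and 2.68 times with the empty vector. ACTL6A thus made up 27.1% to 29.5% of the summed FPKM of ACTL6A and ACTL6B in the deep libraries, and 30.6% of it in the shallow one.

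**Figure D2:**
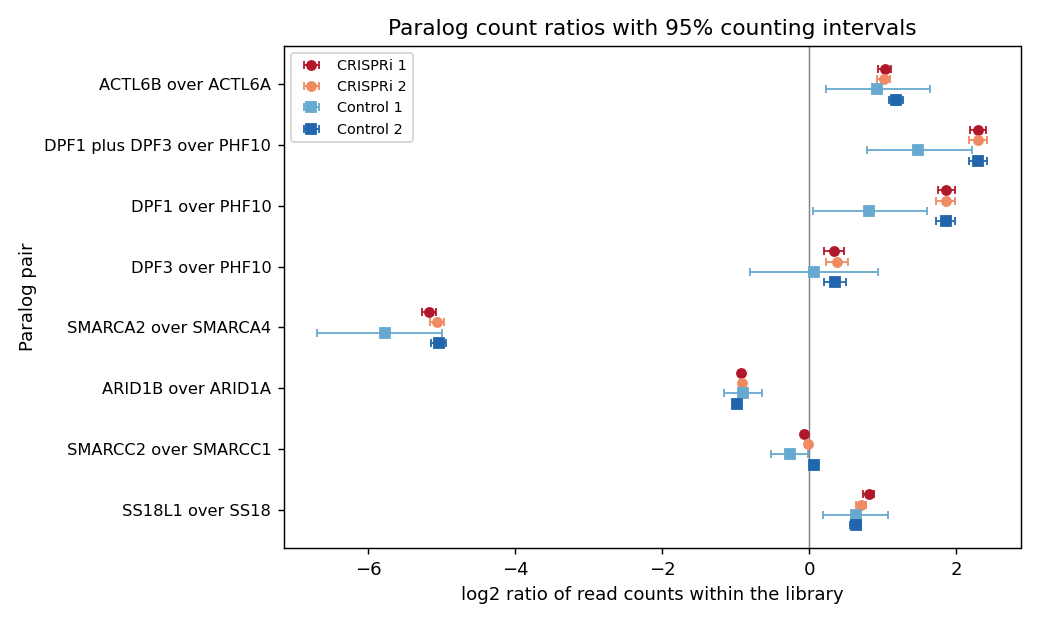
Log2 ratio of read counts of the neuronal to the progenitor (or alternative) paralog within each library, with 95% Clopper-Pearson intervals that cover counting error only; circles are CRISPRi and squares Control libraries. SMARCA2 over SMARCA4 lies near -5, the DPF ratios lie above 0, and for DPF1 over PHF10 Control replicate 1 (0.81) lies apart from the other 3 libraries (1.85 to 1.86).

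The BAF45 position is filled by proteins with PHD fingers that read histone tails, and its member genes were close in the 3 deep libraries. In Control replicate 1 DPF1 was below them, and DPF3 and PHF10 were above them. Such a place was common there (39.5% of all tested genes above, 50.2% below). The exact Poisson interval of Control replicate 1 held 3 deep libraries for DPF3, 2 for PHF10 and 1 for DPF1. DPF1, a neuronal BAF45 protein (hg38 chromosome 19, 38211006 to 38229714, minus strand), was at 62.9 and 58.3 CPM in CRISPRi and at 44.4 and 60.6 CPM in Control. The low value was Control replicate 1, and the log2 fold change was 0.11 (SE 0.13, 95% interval -0.23 to 0.44, edgeR adjusted p = 1.00). Leaving out Control replicate 2 made it 0.48, with Control replicate 1 alone in its group. Leaving out Control replicate 1 made it 0.01. DPF3, the other neuronal member, also known from heart and muscle (hg38 chromosome 14, 72619296 to 72894116, minus strand), was at 21.9 and 20.9 CPM in CRISPRi and at 26.5 and 21.4 CPM in Control, a log2 fold change of -0.06 (95% interval -0.41 to 0.29) that was 0.00 without Control replicate 1. PHF10, the progenitor BAF45 protein, which also belongs to the PBAF form of the complex (hg38 chromosome 6, 169703902 to 169724500, minus strand), was at 17.3 and 16.1 CPM in CRISPRi and at 25.4 and 16.8 CPM in Control. Here the high value was Control replicate 1, on 24 counts, and the groups overlapped.

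DPF1 and DPF3 together had 4.90 and 4.91 times the reads of PHF10 with CRISPRi, and 2.79 times in the first and 4.89 times in the second Control library. The 3 deep libraries nearly coincided (4.89 to 4.91), while the interval of Control replicate 1 (1.73 to 4.65) lay below their 3 values. The groups did not overlap (difference of mean log2 ratios 0.41, counting interval 0.06 to 0.76, exact two-sided permutation p = 0.33, the smallest possible), but without Control replicate 1 the difference was 0.00. For DPF1 alone the ratio to PHF10 was 3.64 and 3.62 in CRISPRi and 1.75 (interval 1.04 to 3.02) and 3.62 in Control, and its difference of 0.53 (counting interval 0.15 to 0.90, exact permutation p = 0.667) also became 0.00 without that library. DPF3 over PHF10 was 1.26 and 1.30 in CRISPRi and 1.04 (interval 0.571 to 1.90) and 1.28 in Control, so this interval held the ratios of all 3 deep libraries. Control replicate 1 thus lay apart for the ratios that include DPF1 and not for DPF3 over PHF10. The part of its cell cycle genes (753 CPM) in these ratios was not tested.

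Length matters for the level of this position. In the deep libraries DPF1 made up 40.0% to 41.5% of the deposited FPKM of the BAF45 genes, DPF2 (the ubiquitous paralog) 32.7% to 35.8%, DPF3 12.3% to 13.6% and PHF10 11.9% to 12.2%. When counts were instead divided by the longest coding transcript of GENCODE release 29, DPF1 was at 39.3% to 41.6%, DPF2 at 44.7% to 47.6%, DPF3 at 7.29% to 7.54% and PHF10 at 5.82% to 6.14%. The order of DPF1 and DPF2 therefore turned with the length used. The FPKM of DPF3 was also computed with unequal lengths between libraries: count and FPKM together imply 2.53 to 2.79 kb in the deep libraries and 4.02 kb in Control replicate 1. By FPKM that library was the lowest for DPF3 (6.58, against 7.49 to 8.63 in the deep libraries), and by CPM it was the highest.

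RNA for the ATPase position was almost entirely SMARCA4. SMARCA4 (BRG1), 1 of the 2 alternative motors of the complex (hg38 chromosome 19, 10961030 to 11062271, plus strand), was at 736 and 749 CPM in CRISPRi and at 752 and 766 CPM in Control. Both Control values lay narrowly above both CRISPRi values, and the log2 fold change was -0.02 (SE 0.08, 95% interval -0.20 to 0.17, edgeR adjusted p = 1.00). SMARCA2 (BRM), the other motor (hg38 chromosome 9, 2015347 to 2193623, plus strand), was at 20.5 and 22.4 CPM in CRISPRi and at 13.8 and 23.3 CPM in Control, where the low value rests on 13 counts. Its groups overlapped, with a log2 fold change of 0.02 (SE 0.20, 95% interval -0.47 to 0.51) that rose to 0.67 when Control replicate 2 was left out and turned to -0.11 when Control replicate 1 was. By deposited FPKM SMARCA2 contributed 2.80% to 2.85% of the position in the deep libraries, against 1.72% in the shallow one. The ratio of SMARCA2 to SMARCA4 reads was 0.0279 and 0.0298 in CRISPRi and 0.0183 (interval 0.00969 to 0.0315) and 0.0304 in Control, so that the deep libraries fell inside the interval of the shallow one. The difference of mean log2 ratios was 0.29 (counting interval -0.11 to 0.70, exact permutation p = 1.00) and turned to -0.07 without Control replicate 1.

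ARID1A and ARID1B, mutually exclusive DNA-binding subunits of canonical BAF, were both expressed. ARID1A (hg38 chromosome 1, 26696015 to 26782104, plus strand) was at 411 and 405 CPM in CRISPRi and at 395 and 430 CPM in Control, with overlapping groups and a log2 fold change of 0.00 (SE 0.09, 95% interval -0.21 to 0.21). ARID1B, a gene mutated in Coffin-Siris syndrome (hg38 chromosome 6, 156776026 to 157210779, plus strand), was at 217 and 216 CPM in CRISPRi and at 212 and 217 CPM in Control, a log2 fold change of 0.03 (SE 0.07, 95% interval -0.16 to 0.21). Its values were close to each other in all 4 libraries. The ratio of ARID1B to ARID1A reads was 0.528 and 0.532 in CRISPRi and 0.536 and 0.506 in Control. Per length, ARID1A held 69.1% to 70.3% of the FPKM of the pair in the deep libraries, a range that also held the shallow library (70.0%).

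SMARCC2 (BAF170), a core scaffold subunit and paralog of SMARCC1 (BAF155) (hg38 chromosome 12, 56162359 to 56189483, minus strand), was at 257 and 260 CPM in CRISPRi and at 258 and 268 CPM in Control. The values overlapped and the log2 fold change was -0.01 (SE 0.08, 95% interval -0.20 to 0.18). Its paralog SMARCC1 was at 269 and 264 CPM in CRISPRi and at 310 and 257 CPM in Control, a log2 fold change of -0.05 (95% interval -0.31 to 0.20) that was 0.06 without Control replicate 1. The ratio of SMARCC2 to SMARCC1 reads was 0.955 and 0.985 with CRISPRi, 0.833 in the first Control library and 1.04 in the second, so the lowest and the highest ratio were both Control libraries. The difference of mean log2 ratios, 0.06 (counting interval -0.07 to 0.18, exact permutation p = 1.00), turned to -0.11 without Control replicate 1. By deposited FPKM SMARCC2 led, at 55.8% to 58.0% of the pair in the deep libraries, against 52.8% in the shallow one.

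**Figure D3:**
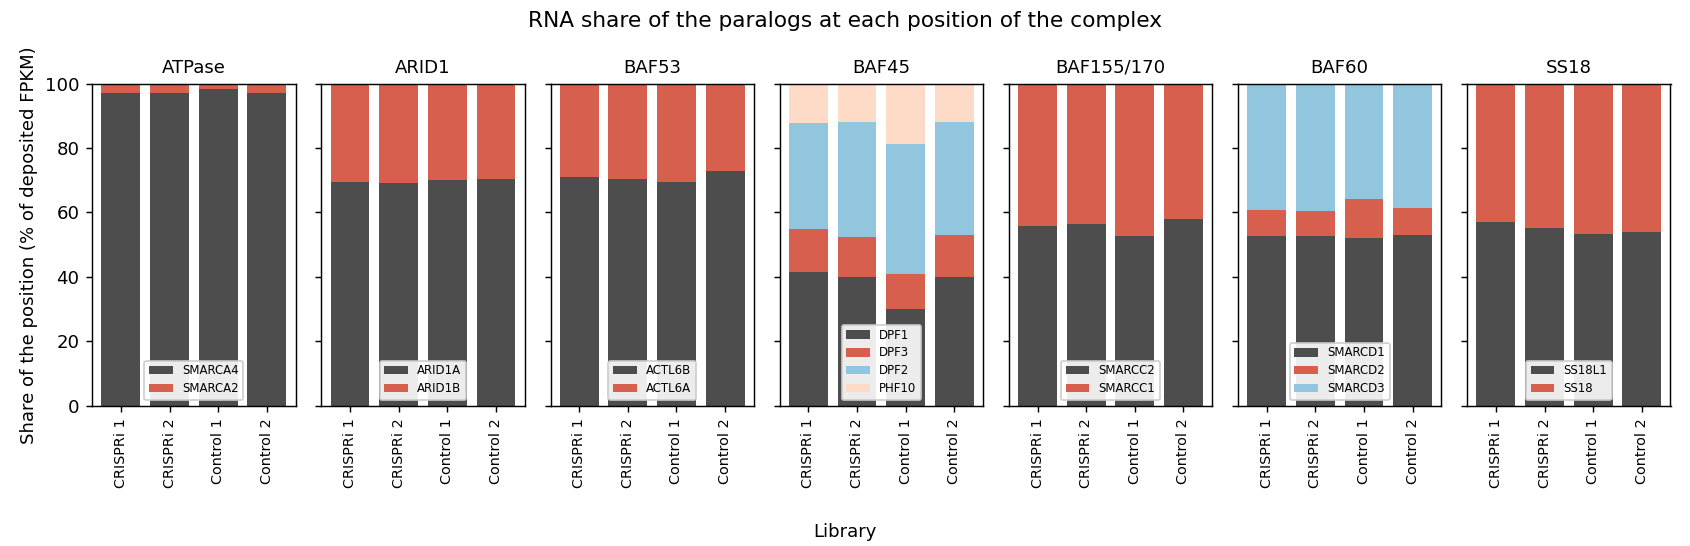
Share of each paralog in the summed deposited FPKM of its position, per library (7 panels, each bar 1 library adding to 100%). SMARCA4 takes over 97% of the ATPase bar in every library, ACTL6B takes 69.4% to 72.9% of BAF53, and the BAF45 bar of Control replicate 1 holds less DPF1 (30.2%) and more PHF10 (18.7%) than the others.

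Ordered by deposited FPKM over the 3 deep libraries, SMARCA4 (132 to 137) stood first, followed by SMARCC2 (52.1 to 54.4). ARID1A (46.2 to 48.9) and ACTL6B (45.3 to 47.5) came next and overlapped each other. DPF1 (24.5 to 26.4), ARID1B (20.6 to 20.7) and ACTL6A (17.7 to 19.1) followed without overlap. DPF3 (7.49 to 8.63) and PHF10 (7.28 to 7.79) overlapped, and SMARCA2 (3.80 to 4.03) was the lowest. In Control replicate 1 PHF10 (11.6) stood above DPF3 (6.58). By CPM, all 3 deep libraries fell inside the exact Poisson interval of Control replicate 1 for 7 of the 10 members, the exceptions being ACTL6B, DPF1 and PHF10, for which 2, 1 and 2 of the 3 did.

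The remaining subunits of BAF, PBAF and non-canonical BAF gave no call either. Of 20 listed and 20 tested, 0 were called higher and 0 lower, and 0 had an unadjusted p under 0.05. The median log2 fold change was -0.03, against 0.01 over all tested genes, with 6 positive and 14 negative, and the groups did not overlap in CPM for 1 of the 20 with CRISPRi higher and for 6 with CRISPRi lower (background 17.8% and 16.5%). In Control replicate 1, 14 of the 20 were above all 3 deep libraries and 3 below, against 39.5% and 50.2% of all tested genes. The smallest p values belonged to BICRA, a subunit of non-canonical BAF (log2 fold change -0.18, 95% interval -0.43 to 0.07), BRD9, a bromodomain subunit of the same form (-0.16, interval -0.43 to 0.11), and ARID2, a PBAF subunit (0.18, interval -0.13 to 0.49). Without Control replicate 2 these were -0.35, -0.32 and 0.52, and without Control replicate 1 they were -0.11, -0.10 and 0.08, with no call. SS18L1 (CREST), the neuronal paralog of SS18, was at 102 and 99.5 CPM in CRISPRi and at 120 and 96.6 CPM in Control, and SS18 at 58.2 and 61.1 CPM and at 77.2 and 62.4 CPM. Their read ratio was 1.75 and 1.63 in CRISPRi and 1.55 and 1.55 in Control. Both CRISPRi ratios lay above both Controls (difference of mean log2 ratios 0.13, counting interval -0.10 to 0.35, exact permutation p = 0.33, the smallest possible). This difference was 0.13 without Control replicate 1, when Control replicate 2 stands alone in its group. It was 0.07 without CRISPRi replicate 1 and 0.18 without CRISPRi replicate 2. It turned to -0.17 when the deep libraries were thinned by a single random draw. The interval of the Control replicate 1 ratio (1.14 to 2.11) held both CRISPRi ratios.

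**Figure D4:**
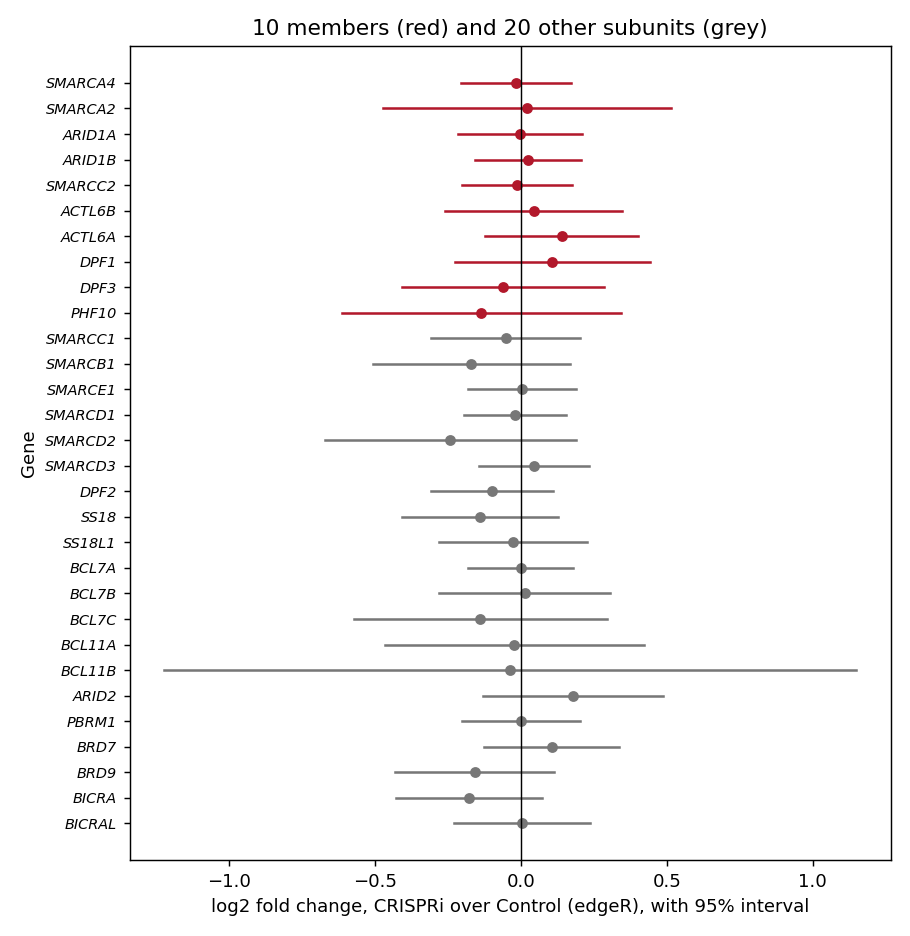
Log2 fold change (CRISPRi over Control, edgeR) with its 95% interval for the 10 members (red) and the 20 other subunits (grey). Every interval crosses 0, and the widest belongs to BCL11B, which had 1 to 54 counts per library.

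Regulators of the switch were read from the same test. Of 16 listed names 12 were tested, and 0 were called (median log2 fold change -0.02, with 4 positive and 8 negative). REST, the repressor of neuronal genes in other cells, was at 3.48 and 4.19 CPM in CRISPRi and at 8.47 and 3.69 CPM in Control, where the high value rests on 8 counts; its log2 fold change was -0.26 (95% interval -1.37 to 0.85), or 0.06 without Control replicate 1. MIR9-3HG, a host transcript of miR-9, was at 9.34 and 8.61 CPM in CRISPRi and at 4.23 and 9.08 CPM in Control. MIR124-1HG, a host transcript of miR-124, was at 10.5 and 8.61 CPM in CRISPRi and at 13.8 and 12.9 CPM in Control. Its groups did not overlap, with CRISPRi lower, as was so for 16.5% of all tested genes. The log2 fold change of MIR124-1HG was -0.44 (SE 0.19, 95% interval -0.91 to 0.03, edgeR adjusted p = 1.00), which did not pass. MIR124-2HG, another host transcript of miR-124, was at 7.69 and 6.93 CPM in CRISPRi and at 7.41 and 7.78 CPM in Control, with overlapping groups. Of the other listed transcripts, MIR9-1HG was at 0 to 0.534 CPM and LINC00461 at 0 to 0.0254 CPM. The corepressor gene RCOR3 had a log2 fold change of 0.12 (95% interval -0.16 to 0.39), or 0.37 with Control replicate 2 left out and 0.05 with Control replicate 1 left out.

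Genes tied to neuronal BAF in dendrite growth and activity response likewise gave 0 calls among 11 tested of 12 listed (median log2 fold change 0.08, 7 positive and 4 negative). STMN2, a microtubule regulator of growing axons, had a log2 fold change of 0.16 (95% interval -0.09 to 0.42), and MAP2, a dendritic microtubule protein, 0.12 (95% interval -0.11 to 0.35). Without Control replicate 2, when Control replicate 1 stands alone in its group, they were 0.29 and 0.23. Without Control replicate 1 they were 0.05 and 0.03. Both genes are also among the pan-neuronal markers and were lowest in Control replicate 1. NGEF, a guanine nucleotide exchange factor, had 0 to 28 counts per library and a log2 fold change of -0.68 (95% interval -2.18 to 0.83). The genes whose log2 CPM followed ACTL6B most closely over the 4 libraries were KIF13A, a kinesin, SLC12A5, the neuronal chloride exporter, and TSPAN31, a tetraspanin (Pearson r above 0.99 for each). With 4 libraries such a likeness is common, since 475 of 7976 genes with a mean of at least 20 CPM had an r above 0.99, and in all 3 genes the lowest value was that of Control replicate 1.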

How the data were processed

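The authors deposited, for each of the 4 libraries, read counts (whole numbers) and FPKM values for every gene. The build is hg38 and the tools named are edgeR and limma, per the submitters' processing notes; the aligner, counter, strand setting and the lengths behind the FPKM are not given in the sources used here, so reads of overlapping or antisense genes cannot be told apart. Counts were summed per symbol and divided by the library total (CPM). The group comparison used R 4.3.3 and the quasi-likelihood test of edgeR 4.0.16 with group as the only term, after filterByExpr and TMM scaling, in its robust form and with a Benjamini-Hochberg threshold of 0.05, with p adjusted over all tested genes. Standard errors come from the F statistic and were not allowed below the Poisson error. Ratios were tested by exact permutation (scipy 1.17.1). The scripts were tested on simulated data. The labels call the replicates biologically independent. Members, lists and pairs were chosen with earlier results of these data known. Named genes are all members, their paralog partners, the 3 smallest p in each list, REST, 6 markers and the 3 genes most like ACTL6B. NANOG, VIM, MIR9-3HG, BCL11B, CHD3, CHD4, SMARCD1 and SMARCD3 fall outside this rule and were chosen with their values in view. Settings tried besides these were other scalings and filters, DESeq2 1.42.0, limma-voom 3.58.1, a replicate block, each library left out, primary chromosomes only, thinning to 944993 counts and, for ratios, 1 added to each count and summed counts. Deposited FPKM served to compare levels between genes and the shares of paralogs within a library, and entered no test. In each library 602 to 954 gene entries had counts but an FPKM of 0. Among them were the subunits SMARCB1 (203 to 7155 counts) and BCL7A (149 to 7265 counts), which enter no share. The reason for these values of 0 was not tested.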

Additional observations from a re-analysis of the deposited data

How the results depend on the processing

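Under every alternative run, 0 members were called, which with 10 members is not read as a sign of stability. Genes called higher, 0 in the comparison of all 4 libraries, became 1 with DESeq2, 1 after thinning and between 2 and 580 when any library was dropped; genes called lower, 4, became 11 with DESeq2, 2 with limma-voom, 9 after thinning and between 15 and 798 when any library was dropped. With the replicate block they were 17 and 25; nothing in the labels says that the numbers pair libraries (correlation of deviations -0.03). Of 335 refitted fold changes 307 kept their sign and call, 3 gained a call (CHD8 0.28, STMN2 and MAP2, without Control replicate 2) and 25 changed sign; the cause was not tested. Signs turned with limma-voom for SMARCA2 (-0.0698), ACTL6B (-0.0363), SMARCC1 (0.0270) and SS18L1 (0.0458), with the replicate block for ARID1A (0.00231), and after thinning for SMARCA4 (0.0268), ARID1A (0.0619), ARID1B (-0.0480), ACTL6B (-0.27), PHF10 (0.0376) and SMARCC2 (0.00244). When any library was dropped the log2 fold change ran from -0.0395 to 0.0111 for SMARCA4, -0.0673 to 0.0788 for ARID1A, -0.0459 to 0.0318 for SMARCC2, -0.11 to 0.67 for SMARCA2, -0.0556 to 0.37 for ACTL6B, 0.11 to 0.27 for ACTL6A, 0.00 to 0.06 for ARID1B, 0.01 to 0.48 for DPF1, -0.28 to 0.00484 for DPF3, -0.57 to 0.00119 for PHF10, -0.19 to 0.0612 for SMARCC1, -0.22 to 0.0654 for SS18L1, -1.11 to 0.0604 for REST and -0.81 to 6.57 for NGEF, which had 0 counts in Control replicate 1. Of 56 ratio differences under alternatives that could move them 47 kept their sign; 16 others, with the replicate block or primary chromosomes only, equal the reported values by construction or because the counts are the same, and say nothing on stability. Thinning was a single random draw of reads, so all values after thinning also carry the counting error of that draw. DPF1 plus DPF3 over PHF10 fell to 0.07 after thinning and 0.03 with summed counts. After thinning DPF3 over PHF10 was -0.62, ARID1B over ARID1A -0.11 and SS18L1 over SS18 -0.17; with counts summed per group SMARCA2 over SMARCA4 was -0.0616 and SMARCC2 over SMARCC1 -0.10. When any library was dropped the differences ran from -0.16 to 0.10 for ACTL6B over ACTL6A, -0.0743 to 0.66 for SMARCA2 over SMARCA4, -0.0165 to 0.0680 for ARID1B over ARID1A and -0.11 to 0.22 for SMARCC2 over SMARCC1. In Control replicate 1, 3 counts equal 3.17 CPM, which limits the low members most.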

Other observations

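Other ATP-dependent remodellers were read from the same test: of 14 listed and tested motor subunits of the CHD, ISWI and INO80 families 0 were called, with a median log2 fold change of 0.02 (8 positive, 6 negative). CHD4, the motor of the NuRD complex, was at 1101 and 1107 CPM in CRISPRi and at 1050 and 1101 CPM in Control. By deposited FPKM it stood at 157 to 168, above SMARCA4 (132 to 137), whereas its paralogs CHD3 (46.2 to 49.6) and CHD5 (3.25 to 3.81) were lower. CHD5, a neuronal paralog, had a log2 fold change of -0.14 (95% interval -0.40 to 0.12), CHD8 one of 0.13 (interval -0.12 to 0.38) and SMARCA5, the ISWI motor, one of 0.10 (interval -0.09 to 0.29). These were -0.08, 0.28 and 0.15 without Control replicate 2, when Control replicate 1 stands alone in its group. CHD5 was -0.07 without CRISPRi replicate 2. Without Control replicate 1 the 3 values were -0.16, 0.03 and 0.06. BAF60, the position of SMARCD1, SMARCD2 and SMARCD3, was led by SMARCD1 (52.6% to 52.9% of its deposited FPKM in the deep libraries) and SMARCD3 (38.7% to 39.6%).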
